A study of Mus musculus with 8 samples.

Results

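The 6 genes described here encode the receptors through which phagocytes bind the constant part of IgG antibodies: Fcgr1, Fcgr3, Fcgr4, Fcgr2b, Fcer1g and Fcgrt. They were chosen by name as the Fc receptors for IgG with their shared signalling chain, out of 22558 gene symbols measured. Fcgr1, Fcgr3 and Fcgr4 are the ligand-binding alpha chains of activating receptors, and each needs the common gamma chain encoded by Fcer1g for surface expression and signalling. The gamma chain carries an immunoreceptor tyrosine-based activation motif (ITAM), whose tyrosines are phosphorylated by Src-family kinases when antibody cross-links the receptor. Fcgr2b encodes the inhibitory receptor of the family, a single chain with an immunoreceptor tyrosine-based inhibition motif (ITIM) that recruits the inositol phosphatase encoded by Inpp5d. Fcgrt encodes the heavy chain of the neonatal Fc receptor, which pairs with beta-2 microglobulin, the product of B2m, and returns IgG from acidic endosomes to the outside of the cell. In the central nervous system and the retina these receptors are best known on microglia and macrophages, where they bind antibody-coated material.

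The libraries came from retinas of adult mice that had been injured by diphtheria toxin A (DTA) expression. Infiltrating macrophages (4 libraries, numbered 5 to 8, with GFP in their titles) were set against microglia (4 libraries, numbered 1 to 4, with cont in their titles). All 8 libraries, the microglial ones included, carried Msi1-CreERT2/+; R26R-DTA/+ on a C57BL/6; 129 mixed background, at about 5 months of age and on day 7 after injury. Msi1-CreERT2 is a tamoxifen-inducible Cre under Msi1 control that switches on the toxin allele, so every library is from injured tissue and none is from an uninjured retina. The sources used here do not give what GFP marks, how the cells were sorted or whether each library is from a separate animal, so the p-values below measure only the spread between these libraries.

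The deposited values are FPKM, fragments scaled to transcript length and to the mapped fragments of the library, which allow levels of genes to be compared per length. Depth was estimated from the low FPKM values at 21.7 to 23.9 M fragments in the macrophage libraries and 11.8 to 21.2 M in the microglial ones, and no member rested on fewer than an estimated 324 fragments in any library. The summed FPKM of a library was between 207077 and 512049 for macrophages, highest in macrophage 6, and between 295881 and 392753 for microglia. Of 10 markers of microglia 4 were lower in macrophages by the test and 0 were higher, and of 8 tested monocyte markers 6 were higher. Tmem119, a defining marker of microglia, averaged 236 FPKM in macrophage libraries and 273 FPKM in microglial libraries, whereas Sall1, another, averaged 0.0088 FPKM in macrophages and 17.7 FPKM in microglia. Summed Y-linked expression was at most 1.97 FPKM in macrophages. It was 11.7 to 25.8 FPKM in microglia 1, 2 and 3 but 0.0533 FPKM in microglia 4. Xist ran the other way, at 4.84 to 7.94 FPKM in macrophages and 4.78 FPKM in microglia 4. It was at most 0.00078 FPKM in microglia 1, 2 and 3. By these sex-linked RNAs sex is largely confounded with cell type, and their parts cannot be told apart here. Summed erythroid markers were at most 23.7 FPKM in macrophages and reached 2437 FPKM in microglia 3. Summed photoreceptor markers were 2.77 to 47.3 FPKM in macrophages and 20.1 to 130 FPKM in microglia. Microglia 2 had 5992 genes at 1 FPKM or more, fewer than any other library (8165 to 10282). The part of these differences in the receptor values was not tested.

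All 6 receptor genes were detected in all 8 libraries, and none passed the test between macrophages and microglia after adjustment over all genes. RNA of the gamma chain Fcer1g was the most abundant member in both populations and averaged 1079 ± 546 FPKM in macrophages, against 2222 ± 863 FPKM in microglia (SD, n = 4 each). Fcgr3, Fcer1g and Fcgrt had lower means in macrophages, whereas the means of Fcgr1, Fcgr4 and Fcgr2b differed by less than the SD of the macrophage libraries. Of the 4 alpha chains, Fcgr3 alone took a share that did not overlap between the groups, chosen after its values were seen. It made up 44.3 ± 4.10% of alpha chain FPKM in macrophages, against 63.0 ± 6.29% in microglia (SD, n = 4 each). How often other tested genes would separate the groups on this measure was not computed. The test was limma on log2(FPKM + 1), with p-values adjusted by Benjamini-Hochberg over 9352 tested genes, and a gene is said to be called where the adjusted p is below 0.05. It called 0 of the 6 members, beside 2.34% of all tested genes (1.65% higher and 0.695% lower in macrophages). Fcer1g and Fcgrt had an unadjusted p below 0.05 and were lower in macrophages, beside 15.0% of all tested genes with such a p and 3.42% that were also lower. None of the 6 had FPKM values that separated all macrophage libraries from all microglial libraries, beside 7.63% of all tested genes. In bulk libraries fewer cells that express a gene and less of its RNA per cell cannot be told apart.

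**Figure D1:**
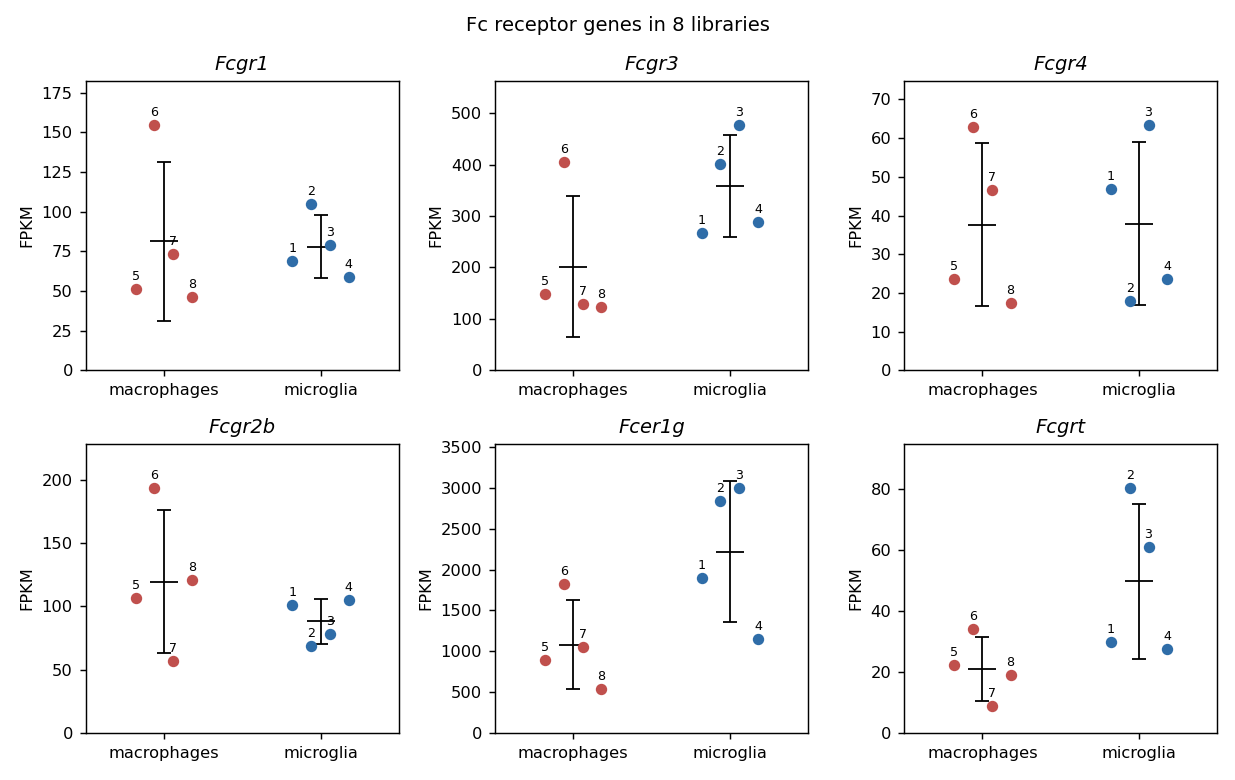
FPKM of each Fc receptor gene (vertical axes from 0, one panel a gene) in the 4 macrophage libraries (left, red) and the 4 microglial libraries (right, blue), each point labelled with its library number; bars show the mean and SD. The groups overlap in every panel, and macrophage 6 is the highest macrophage library for all 6 genes.

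Among the activating alpha chains, Fcgr3 encodes the low-affinity activating receptor and lies on chromosome 1 (mm9 chr1:172981300-172989534, minus strand). Its FPKM was 148, 405, 130 and 123 in macrophages 5 to 8, against 266, 401, 477 and 288 in microglia 1 to 4. Macrophage 6 lay within the microglial range, and the other 3 macrophage libraries lay below every microglial library. The log2 fold change of FPKM + 1 (macrophages minus microglia, as for all fold changes below) was -0.98 ± 0.48 (SE), with a 95% interval of -1.97 to 0.02 and a limma adjusted p of 0.345. Across the 20 alternative fits the adjusted p was between 0.0606 and 1.0, and without microglia 2 and 3 the log2 fold change was -0.65. The exact permutation test over the 70 ways to form groups of 4 libraries gave a two-sided p of 0.114, where 0.0286 is the smallest it can give. Fcgr3 ranked 185th to 305th among 22558 symbols in macrophage libraries and 121st to 147th in microglial libraries.

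Fcgr1 encodes the high-affinity receptor for monomeric IgG and lies on chromosome 3 (mm9 chr3:96086832-96097892, minus strand), away from the cluster on chromosome 1. It had 51.2, 155, 73.5 and 46.1 FPKM in macrophages 5 to 8, against 68.8, 105, 79.2 and 58.7 FPKM in microglia 1 to 4. The macrophage values ran both above and below the whole microglial range, with macrophage 6 the highest library and macrophage 8 the lowest. The means were 81.4 ± 50.2 FPKM in macrophages, against 77.9 ± 19.8 FPKM in microglia (SD, n = 4 each), and the log2 fold change was -0.08 ± 0.51 (SE; limma adjusted p = 0.965). The 95% interval of -1.13 to 0.97 holds differences of about 1 log2 unit in either direction. The sign itself turned under rescaling to an equal FPKM sum, where the log2 fold change was 0.082.

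Fcgr4 encodes a receptor of intermediate affinity, described in mouse, that binds IgG2a and IgG2b. It lies between Fcgr2b and Fcgr3 (mm9 chr1:172949057-172959892, plus strand). Its FPKM was 23.5, 62.9, 46.7 and 17.3 in macrophages 5 to 8, against 46.8, 17.8, 63.4 and 23.5 in microglia 1 to 4. Both groups spanned nearly the same range, and the means were 37.6 ± 21.1 FPKM in macrophages, against 37.9 ± 21.1 FPKM in microglia (SD, n = 4 each). The log2 fold change was -0.01 ± 0.58 (SE), with a 95% interval of -1.21 to 1.19 and a limma adjusted p of 0.993. It was 0.14 after rescaling to an equal FPKM sum. Relative to its mean, Fcgr4 varied most of the 4 alpha chains in microglia, with a coefficient of variation of 55.7%.

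The gamma chain gene Fcer1g lies on the same chromosome as Fcgr3 and Fcgr4 (mm9 chr1:173159703-173164480, minus strand). The coding bases of its ITAM, which span the end of exon 4 (chr1:173160198-173160203) and the start of exon 5 (chr1:173160020-173160058) of 5 exons, are shown because this stretch is what turns alpha chain binding into a signal. They are written 5′ to 3′ on the coding strand from the GENCODE M1 transcript, and the codons of both ITAM tyrosines are in capitals.
Fcer1g ITAM: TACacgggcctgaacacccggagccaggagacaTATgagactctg
Fcer1g had 899, 1829, 1055 and 533 FPKM in macrophages 5 to 8, against 1895, 2836, 3003 and 1155 FPKM in microglia 1 to 4. Every macrophage library lay below microglia 1, 2 and 3, and microglia 4 lay within the macrophage range. The log2 fold change was -1.08 ± 0.47 (SE), with a 95% interval of -2.05 to -0.11, an unadjusted p of 0.0303 and a limma adjusted p of 0.282 (0.0754 to 1.0 across the 20 alternative fits). The exact permutation p was 0.0571. With summed Y-linked expression as a term, which is high in the same microglia 1, 2 and 3, the log2 fold change was -0.44, and with microglia 2 and 3 left out it was -0.59. Even so Fcer1g was among the most abundant RNAs of every library, ranking 21st to 45th among 22558 symbols in macrophages and 15th to 23rd in microglia.

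Tyrobp encodes DAP12, the other ITAM adaptor of myeloid cells, and its coding sequence was identical to that of Fcer1g at 72.1% of aligned bases. It had 1293, 2493, 1594 and 700 FPKM in macrophages 5 to 8, against 2905, 3927, 6801 and 2161 FPKM in microglia 1 to 4. Its log2 fold change was -1.38 ± 0.48 (SE; limma adjusted p = 0.152). Fcer1g and Tyrobp followed each other over the 8 libraries, with a Pearson r of 0.971 on the log2 scale. The FPKM ratio of Fcer1g to Tyrobp was 0.713 ± 0.0434 in macrophages, against 0.588 ± 0.124 in microglia (SD, n = 4 each), and the groups overlapped.

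The inhibitory receptor gene Fcgr2b lies at the lower-coordinate end of the chromosome 1 cluster (mm9 chr1:172890689-172906202, minus strand). The coding bases of its ITIM, with 5 codons on either side and the codon of the ITIM tyrosine in capitals, are shown because this motif is what gives the chain its inhibitory role. They join the last bases of exon 7 (chr1:172891327-172891329) to exon 8 (chr1:172891187-172891231), the last of 8 exons.
Fcgr2b ITIM: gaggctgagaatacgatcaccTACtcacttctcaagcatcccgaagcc
Fcgr2b had 107, 193, 56.8 and 120 FPKM in macrophages 5 to 8, against 101, 68.5, 77.8 and 105 FPKM in microglia 1 to 4. Macrophages 5, 6 and 8 lay above every microglial library and macrophage 7 lay below every one. The means were 119 ± 56.4 FPKM in macrophages, against 88.0 ± 17.6 FPKM in microglia (SD, n = 4 each). Fcgr2b was the only member with a positive log2 fold change, 0.33 ± 0.49 (SE; 95% interval -0.69 to 1.34; limma adjusted p = 0.804). It was -0.03 with the Y-linked term, and the exact permutation p was 0.457.

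The neonatal receptor gene Fcgrt lies on chromosome 7 (mm9 chr7:52348363-52359192, minus strand). It had 22.4, 34.0, 8.71 and 19.0 FPKM in macrophages 5 to 8, against 29.9, 80.4, 61.1 and 27.5 FPKM in microglia 1 to 4. Macrophages 5, 7 and 8 lay below every microglial library, and macrophage 6 lay between microglia 1 and 3. The log2 fold change of -1.20 ± 0.58 (SE) had a 95% interval of -2.39 to -0.01, an unadjusted p of 0.0477 and a limma adjusted p of 0.329 (0.109 to 1.0 across the 20 alternative fits). The exact permutation p was 0.0857. The log2 fold change was -0.57 without microglia 2 and 3 and -0.66 with array weights. Its partner chain B2m averaged 1576 ± 740 FPKM in macrophages, against 3082 ± 1337 FPKM in microglia (SD, n = 4 each; log2 fold change -0.96 ± 0.47 SE, limma adjusted p = 0.340). The FPKM ratio of Fcgrt to B2m was 0.0189, 0.0131, 0.00537 and 0.0210 in macrophages 5 to 8, against 0.0104, 0.0237, 0.0131 and 0.0194 in microglia 1 to 4. The ratios overlapped, and B2m, which also pairs with MHC class I heavy chains, was far above Fcgrt in every library.

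Levels also depended on how libraries were scaled. The median log2 fold change of the 6 members was -0.53 and that of all tested genes was 0.37. The all-gene median was 0.47 with libraries rescaled to an equal FPKM sum, 0.27 with upper-quartile scaling, 0.17 with median-of-ratios scaling and -0.03 with quantile normalization. Relative to that median, Fcgr3 stood at -1.34, Fcer1g at -1.45 and Fcgrt at -1.57 log2 units in the deposited scale, and at -0.70, -0.73 and -1.17 in the same order with quantile normalization. After rescaling to an equal FPKM sum, Fcgr3 was 155, 248, 196 and 160 in macrophages 5 to 8, against 279, 361, 381 and 305 in microglia 1 to 4, and the groups no longer overlapped. Fcgrt was then 23.3, 20.8, 13.2 and 24.6 in macrophages 5 to 8, against 31.3, 72.4, 48.8 and 29.1 in microglia 1 to 4, also with no overlap. Of all tested genes 2.47% were lower in macrophages without overlap on that scale, and the limma adjusted p was 0.120 for Fcgr3 and 0.186 for Fcgrt. None of the 6 members was called in any of the 20 alternative fits.

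**Figure D2:**
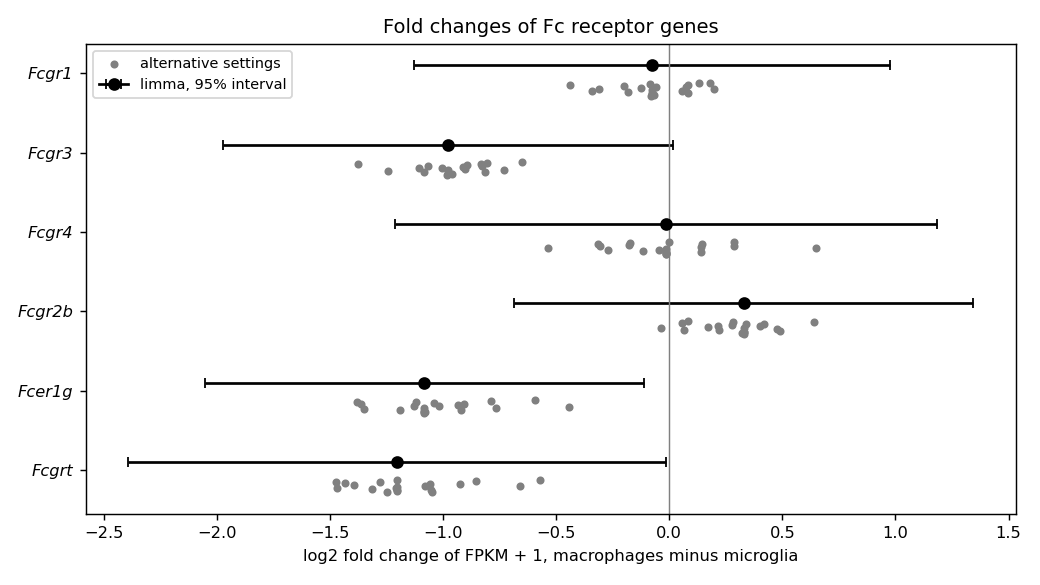
Log2 fold changes of FPKM + 1, macrophages minus microglia (horizontal axis), for the 6 Fc receptor genes; black points with bars are the limma estimates with 95% intervals, and grey points are the same quantity under each alternative setting. Fcgr3, Fcer1g and Fcgrt stay below 0 under every setting, and the points of Fcgr1, Fcgr2b and Fcgr4 fall on both sides.

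Ratios within a library do not depend on its scaling. The activating alpha chains Fcgr1, Fcgr3 and Fcgr4, summed and set over the inhibitory Fcgr2b, gave an FPKM ratio of 2.09, 3.22, 4.40 and 1.55 in macrophages 5 to 8, against 3.77, 7.64, 7.96 and 3.54 in microglia 1 to 4. The ratio averaged 2.81 ± 1.26 in macrophages, against 5.73 ± 2.40 in microglia (SD, n = 4 each), and macrophage 7 lay above microglia 1 and 4, so the groups overlapped. Of the 3 chains, Fcgr3 was the one whose own ratio to Fcgr2b separated the groups. The ratio of Fcgr3 to Fcgr2b was 1.39, 2.096, 2.28 and 1.02 in macrophages 5 to 8, against 2.63, 5.85, 6.12 and 2.75 in microglia 1 to 4. Every macrophage library lay below every microglial library, with means of 1.70 ± 0.591 in macrophages, against 4.34 ± 1.91 in microglia (SD, n = 4 each), a mean log2 difference of -1.31. Among all tested genes set over Fcgr2b in the same way, 4.48% were lower in macrophages without overlap. Microglia 2 and 3 held the highest ratios, and without them the mean log2 difference was -0.74, and that of the activating to inhibitory ratio was -0.49 in place of -1.04. The ratio of Fcgr1 to Fcgr2b was 0.739 ± 0.410 in macrophages, against 0.947 ± 0.434 in microglia (SD, n = 4 each), and the groups overlapped. So did the ratio of Fcgr4 to Fcgr2b, at 0.378 ± 0.305 in macrophages, against 0.441 ± 0.270 in microglia. In all, 7 ratios and 4 shares were computed, those of Fcgr3 are dwelt on after their values were seen, and no p-value is given for any of them.

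**Figure D3:**
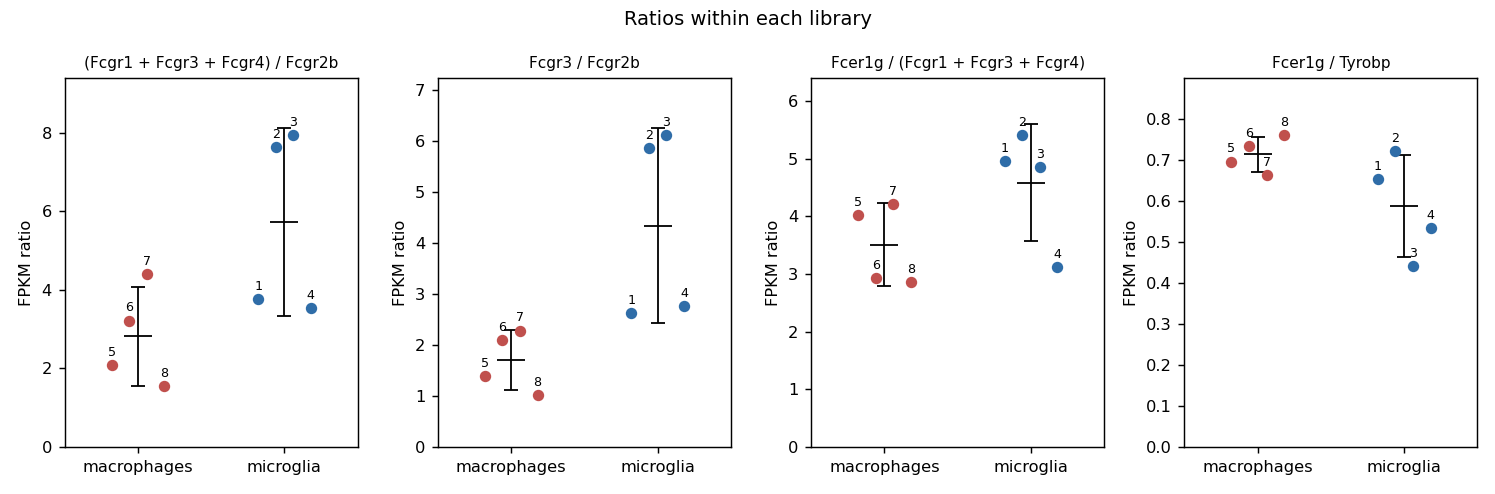
FPKM ratios formed within each library (vertical axes from 0) in the 4 macrophage libraries (left, red) and the 4 microglial libraries (right, blue), labelled with library numbers, with mean and SD. Only the ratio of Fcgr3 to Fcgr2b separates all libraries of both groups, with at most 2.28 in macrophages and at least 2.63 in microglia.

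As a share of the summed FPKM of the 4 alpha chains, Fcgr3 took 45.0, 49.7, 42.3 and 40.1% in macrophages 5 to 8, against 55.1, 67.7, 68.4 and 60.7% in microglia 1 to 4. Fcgr2b took 32.4, 23.7, 18.5 and 39.2% in macrophages 5 to 8, against 20.9, 11.6, 11.2 and 22.0% in microglia 1 to 4. The Fcgr3 shares did not overlap, whereas the Fcgr2b share of macrophage 7 lay within the microglial range. No value over all tested genes was computed for this measure, so how unusual such a separation is was not tested. Fcgr1 took 18.4 ± 4.12% in macrophages and 13.9 ± 2.79% in microglia, and Fcgr4 took 8.92 ± 4.29% in macrophages, against 6.69 ± 3.23% in microglia (SD, n = 4 each), both with overlap. Fcer1g set over the 3 activating chains that need it gave an FPKM ratio of 4.03, 2.94, 4.22 and 2.85 in macrophages 5 to 8, against 4.96, 5.42, 4.85 and 3.12 in microglia 1 to 4, and only microglia 4 lay within the macrophage range.

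**Figure D4:**
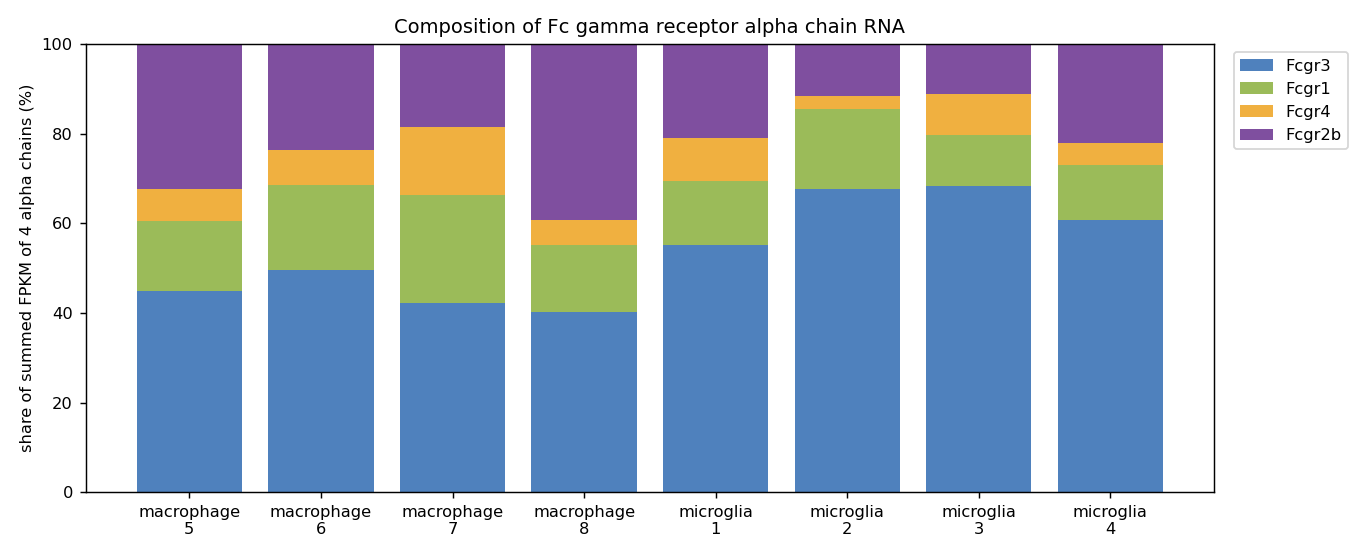
Share of the summed FPKM of the 4 Fc gamma receptor alpha chains taken by each chain (vertical axis, %), one stacked bar a library, macrophages 5 to 8 on the left and microglia 1 to 4 on the right. The Fcgr3 segment is at most 49.7% in macrophages and at least 55.1% in microglia.

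How reads were divided between Fcgr2b and Fcgr3 bears on these ratios. Their coding sequences were identical at 87.1% of aligned bases (684 of 785), against 64.0 to 68.7% for the other pairs of alpha chains. The longest run they share is 129 bases, shown because a read that falls inside it could come from either gene. It lies in exons 3 and 4 of both, at chr1:172898111-172898212 and chr1:172896805-172896831 in Fcgr2b and at chr1:172987822-172987923 and chr1:172984298-172984324 in Fcgr3.
Fcgr2b and Fcgr3 shared run: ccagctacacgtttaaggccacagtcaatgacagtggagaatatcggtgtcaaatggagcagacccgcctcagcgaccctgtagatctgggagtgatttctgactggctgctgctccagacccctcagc
Of all 50-base windows of the transcripts, 10.7% of those of Fcgr2b and 12.8% of those of Fcgr3 occurred in the other gene, and at 100 bases 2.9% and 3.5% did. The other 4 members shared no such window with any other gene. How the authors' estimates divided reads from these windows is unknown here, and its part in the ratio of Fcgr3 to Fcgr2b was not tested.

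By mean FPKM the order was Fcer1g, Fcgr3, Fcgr2b, Fcgr1, Fcgr4 and Fcgrt in macrophages, and Fcer1g, Fcgr3, Fcgr2b, Fcgr1, Fcgrt and Fcgr4 in microglia. Fcer1g stood clear of Fcgr3 in both, with no overlap of their ranges. Fcgr3 stood clear of Fcgr2b in microglia, and in macrophages their ranges overlapped although Fcgr3 was the higher in 4 of 4 libraries. Fcgr2b was above Fcgr1 in 3 of 4 macrophage libraries and 2 of 4 microglial libraries, and no other neighbours in either order had ranges that did not overlap.

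Of the other Fc receptor genes, 4 of 12 had enough RNA to be tested and 0 were called. Fcrls, an Fc receptor-like gene known as a microglial marker, was the most abundant, with 251, 568, 489 and 144 FPKM in macrophages 5 to 8, against 685, 410, 505 and 793 FPKM in microglia 1 to 4. Macrophages 6 and 7 lay within the microglial range, and the log2 fold change was -0.87 ± 0.49 (SE; limma adjusted p = 0.416). Fcer1a, the alpha chain of the high-affinity IgE receptor, which also uses Fcer1g, averaged 0.896 FPKM in macrophages and 0.232 FPKM in microglia and was too low to test. Trim21, a cytosolic IgG receptor named here after its values were seen, averaged 7.04 ± 2.82 FPKM in macrophages, against 0.826 ± 1.26 FPKM in microglia (SD, n = 4 each; limma adjusted p = 0.0637).

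Downstream of the gamma chain, 16 of 18 genes of ITAM signalling were tested and 0 were called, with a median log2 fold change of 0.48. Rac2, a GTPase of phagocytosis and the most abundant of them, averaged 87.2 ± 46.3 FPKM in macrophages, against 122 ± 41.2 FPKM in microglia (SD, n = 4 each; limma adjusted p = 0.631). Of the genes of ITIM and other inhibitory signalling, 11 of 14 were tested and 0 were called, with a median of 0.74. Lilrb4, an inhibitory receptor with ITIMs, averaged 238 ± 143 FPKM in macrophages and 271 ± 37.5 FPKM in microglia (limma adjusted p = 0.784). Inpp5d, the phosphatase that Fcgr2b recruits, averaged 32.7 ± 8.87 FPKM in macrophages and 30.0 ± 8.90 FPKM in microglia (limma adjusted p = 0.937). All 6 genes of the NADPH oxidase, which Fc receptor cross-linking activates, were tested and 0 were called. Cyba, its membrane subunit p22phox, averaged 592 ± 354 FPKM in macrophages and 759 ± 255 FPKM in microglia (limma adjusted p = 0.695). Cybb, the catalytic subunit, named after its values were seen, averaged 115 ± 51.3 FPKM in macrophages and 31.7 ± 7.73 FPKM in microglia (limma adjusted p = 0.0704).

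Among the adaptors and partner receptors that signal through Fcer1g or Tyrobp, 11 of 16 were tested, 2 were called higher and 1 lower in macrophages, and the median log2 fold change was 0.02. Clec4n, which encodes Dectin-2, a receptor for fungal mannans that signals through the gamma chain, had 45.7, 146, 16.7 and 46.8 FPKM in macrophages 5 to 8, against 4.36, 0, 0.759 and 0 FPKM in microglia 1 to 4. It rose by a log2 fold change of 4.81 ± 0.74 (SE; limma adjusted p = 0.000377) and was called in all alternative fits but the one with no filter on low values, where the adjusted p was 0.0670. Clec4d, a C-type lectin that is also coupled to the gamma chain, rose to 3.73 ± 2.12 FPKM in macrophages, against 0.0506 ± 0.101 FPKM in microglia (SD, n = 4 each; limma adjusted p = 0.0233). Siglech, a sialic acid-binding lectin of microglia that signals through Tyrobp, fell to 3.88 ± 3.51 FPKM in macrophages, against 31.3 ± 17.8 FPKM in microglia (log2 fold change -2.79 ± 0.68 SE, limma adjusted p = 0.0247). The calls of Clec4d and Siglech were each lost in 8 alternative fits, among them those without microglia 1, microglia 3 or macrophage 8, with adjusted p up to 0.773 and 0.679. The summed level of 10 measured neutrophil markers was 42.8 to 242 FPKM in macrophages and 0.667 to 1.46 FPKM in microglia. Most of it came from S100a8, S100a9 and Retnlg, which were above 1 FPKM in every macrophage library and listed at 0 in all 4 microglial libraries. Of the other markers, Camp, Ngp and Elane were listed at 0 in all 4 macrophage libraries, Ltf and Mpo in 3 of them, and Camp and Elane were above 0 in some microglial libraries. The part of neutrophil RNA in the receptor values was not tested.

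Of 11 genes of pathways known to induce or repress Fc receptors (interferon-gamma, C5a and TGF-beta signalling and myeloid transcription factors), 10 were tested, 2 were called higher and 0 lower, and the median log2 fold change was -0.05. Irf1, an interferon-induced transcription factor, rose to 39.4, 39.6, 29.9 and 30.3 FPKM in macrophages 5 to 8, against 4.81, 0.0269, 0.757 and 13.5 FPKM in microglia 1 to 4 (log2 fold change 3.34 ± 0.73 SE, limma adjusted p = 0.0117). Jak2, a kinase of the interferon-gamma receptor, rose to 15.1 ± 10.9 FPKM in macrophages, against 1.09 ± 1.24 FPKM in microglia (log2 fold change 2.85 ± 0.73 SE, limma adjusted p = 0.0354). Both calls were lost with the Y-linked term, with no filter, with a pseudocount of 0.1, without macrophage 6 and without microglia 2 and 3, and that of Jak2 also without microglia 1, microglia 3, macrophage 5 or macrophage 8, with adjusted p up to 1.0 for each. Fcgr1 and Fcgr4, which interferon-gamma is known to induce, had log2 fold changes of -0.08 and -0.01 in the same libraries, and neither was called. Of 8 genes around Fcgrt, B2m and endosomal proteins, all were tested and 0 were called, with a median of -0.46.

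**Figure D5:**
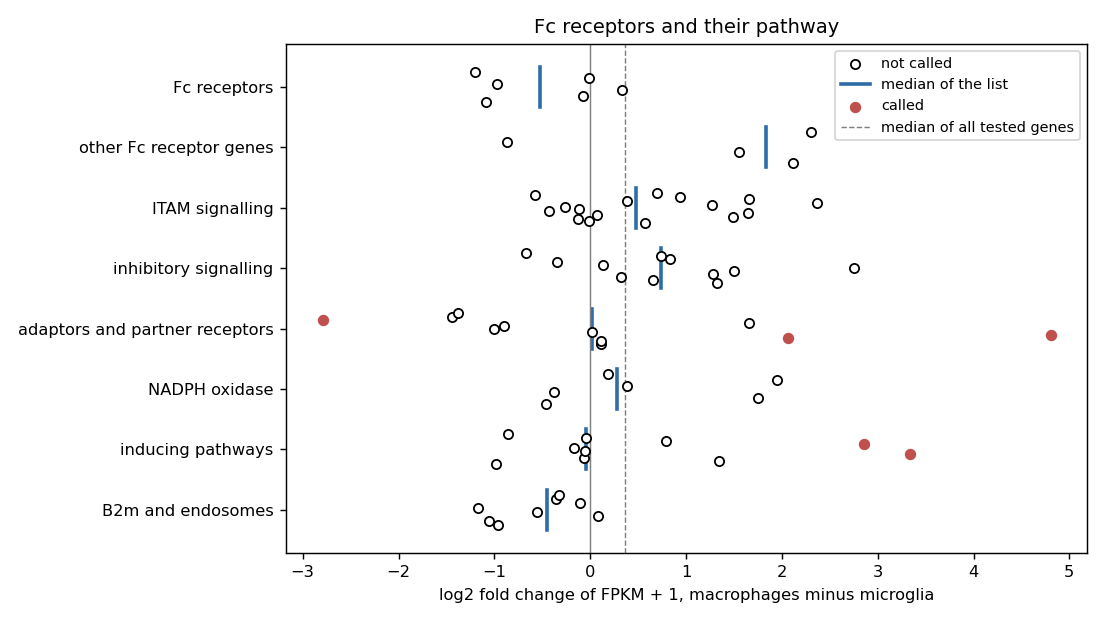
Log2 fold changes of FPKM + 1, macrophages minus microglia (horizontal axis), of the tested genes in each list (rows), with called genes filled in red, list medians as blue bars and the median of all tested genes (0.37) as a dashed line. No Fc receptor is called, and the called genes are Clec4n, Clec4d and Siglech among adaptors and partner receptors and Irf1 and Jak2 among inducing pathways.

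Markers of other cells that carry Fc receptors were also summed. Those of natural killer cells, which use Fcgr3 with Fcer1g, were 2.71 to 28.9 FPKM in macrophages and 0.0233 to 3.29 FPKM in microglia, and 0 of 9 passed the filter. Klrd1 gave most of the sums of macrophages 5, 6 and 8 (9.17, 3.04 and 20.6 FPKM). It was 0 in the other macrophage library and in every microglial one. Il2rb was 0 in all 8 libraries, and Ncr1, Gzmb, Prf1 and Eomes had higher means in microglia. Mast cell and basophil markers were 1.69 to 9.66 FPKM in macrophages and 0 to 3.52 FPKM in microglia. Kit alone was 0.471 to 7.71 FPKM in macrophages. Markers of the B lineage, in which Fcgr2b is the Fc gamma receptor, were 4.24 to 15.5 FPKM in macrophages and 0.0112 to 35.1 FPKM in microglia. Cd79b alone was 3.36 to 13.9 FPKM and 0 to 34.8 FPKM in the same order. Dendritic cell markers summed to 49.4, 60.8, 16.4 and 133 FPKM in macrophages 5 to 8, against 3.62, 2.58, 34.8 and 7.40 FPKM in microglia 1 to 4. Macrophage 8 had the highest dendritic sum, above its levels of every member but Fcer1g (Fcgr3 was 123 FPKM there). Microglia 3 had the highest dendritic sum of the microglia. The part of these cells in the receptor values was not tested.

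Members differed in which libraries they followed. Fcgr3 and Fcer1g moved together over the 8 libraries, with a Pearson r of 0.896 on the log2 scale, and Fcer1g and B2m with an r of 0.979, whereas Fcgr2b and Fcer1g had an r of -0.21. With libraries rescaled to an equal sum those values were 0.826, 0.965 and -0.905 in the same order. All these points share the libraries and their FPKM scaling, so the values are descriptions. The genes most like each member among 9352 tested genes were Susd3, Cstb and Mpeg1 for Fcgr3 (r of 0.979, 0.978 and 0.970) and Ssr4, Gabarap and Atp6v1f for Fcer1g (r of 0.993, 0.982 and 0.981). For Fcgr2b they were Tbk1, Acp1 and Fam105a (r of 0.991, 0.988 and 0.985), and for Fcgrt they were Tmem127, Mex3c and Taf13 (r of 0.973, 0.966 and 0.965). For Fcgr1 they were Tuba1a, Cuta and Pigx (r of 0.970, 0.959 and 0.948), and for Fcgr4 they were Dus2l, Lpxn and Apoc4 (r of 0.963, 0.954 and 0.942). No gene was among the nearest 3 of more than 1 member. Around the 4 chromosome 1 members, 26 genes lie within 250 kb, of which 17 were tested and 0 were called. Their median log2 fold change was 1.22 (-0.77 to 1.83), beside 0.37 for all tested genes. Some were low, such as Fcrlb, with means of 3.08 FPKM in macrophages and 0.321 FPKM in microglia, and Tomm40l, with 5.64 and 1.69 FPKM.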

How the data were processed

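RNA-seq of 4 macrophage and 4 microglial libraries was grouped by the cell type in the labels. The authors deposited an FPKM estimate for each gene, per the file headers with an interval, a status and a locus. Cufflinks 2.1.1, bcl2fastq 1.8.4 and the mm9 build are named per the submitters' processing notes. For the aligner, the annotation and strand: not given in the sources used here. FPKM is relative to a library's total, so abundant RNAs lower all others. Rows that share a symbol (463) were summed, and 9 symbols with a failed estimate were left out. Intervals were not used, since 927 to 1960 values per library lie outside their own. The values of Fcgr3, Fcgr4, Fcer1g, B2m and Tyrobp did so in 4 macrophage and 4 microglial libraries, and those of Fcgr1 in 4 and 3. Fcgrt did so in 1 and 2, and Fcgr2b in 0 of either group. The part of this in the ratio of Fcgr3 to Fcgr2b was not tested. No library pair was identical.

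A gene was tested where 4 or more libraries reached 1 FPKM. The test was limma (version 3.58.1, R 4.3.3) with a trend on mean level and no covariate, run two-sided on log2(FPKM + 1), with Benjamini-Hochberg adjustment. The fold change scale understates changes of low genes. Tables and exact tests were made in scipy 1.17.1, numpy 2.4.6 and pandas 2.3.3 (Python 3.11.15). Alternatives were other pseudocounts (0.1 and 5), filters, scalings, no trend, a Y-linked term, array weights and left-out libraries. On data simulated for this comparison (10 runs of 9352 genes, 200 changed), 22% of changes of log2 2 and 87.2% of changes of log2 4 were recovered, and 3.44% of calls were false. The simulation drew independent noise for each gene and changed only genes above a set mean level. It held no shift shared by the genes of a library, so these rates need not hold for the real libraries. Depth was estimated from the most frequent low value of FPKM times transcript length, taken as a single fragment, with an assumed fragment length of 150 bases. Only values inside a fixed window were searched, so the estimate could not fall outside the depths that this window allows. It is approximate, and the fragment numbers of the members rest on it. Sequences were read from GENCODE M1 transcripts and their coordinates checked on the mm9 genome. Motifs were located by their tyrosine patterns in the translated coding sequence. The ITAM pattern matched 1 time, in Fcer1g only among the members. The ITIM pattern is short and also matched in Fcgr1, Fcgr4, Fcer1g and Fcgrt, so a match is a description.

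Members and gene lists were chosen with earlier results of these data known. Named genes are the 6 members, B2m and Tyrobp, and for each member the 3 genes of highest Pearson r. In each receptor or pathway list they are the most abundant called genes (3 at most). Where none was called, the tested gene of highest FPKM is named. Cell type marker lists are given as counts or sums, and only some of their genes are named. Inpp5d, Fcer1a, Tmem119 and Sall1 were added for their roles. Syk, Spi1 and Pirb, among others of the lists, were not analysed here.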

Additional observations from a re-analysis of the deposited data

Results flagged for a closer look

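Of 38 groups of 4 libraries examined for a value far from the others, 3 stood out, where chance flags about 1 in 20 independent groups. These groups are not independent, since they reuse the same genes and libraries, and the flagged sums below contain Fcgr3. All 3 are macrophage 6. Its Fcgr3 level of 405 FPKM was the highest of the macrophages, and the gap to the next library took 0.911 of the group's range, above Dixon's critical value at the 95% level. The same library stood apart for the summed 4 alpha chains, at 816 FPKM (0.954 of the range), and for the summed 3 activating chains, at 623 FPKM (0.855 of the range). Macrophage 6 also had the highest FPKM sum, 512049, and rescaling to an equal sum brought its Fcgr3 value to 248. Without it the log2 fold change of Fcgr3 was -1.38, and Fcgr3 was still not called.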

How the results depend on the processing

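None of the 6 members was called in any of 20 alternative fits, and Fcgr3, Fcer1g and Fcgrt kept a negative log2 fold change in each, at -1.38 to -0.81, -1.38 to -0.79 and -1.47 to -0.86 with one library left out and -0.65, -0.59 and -0.57 without both microglia 2 and 3. Fcgr1 turned positive with an equal FPKM sum (0.082), quantile normalization (0.054), the Y-linked term (0.20) and microglia 2 and 3 left out (0.18), and ran from -0.44 to 0.13 with one library left out. Fcgr4 turned positive with an equal FPKM sum (0.14) and the Y-linked term (0.65), and ran from -0.32 to 0.29 with one library left out. Fcgr2b was -0.034 with the Y-linked term and 0.06 to 0.64 with one library left out. The cause of these changes was not tested.

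The count of called genes was 219. It was 136 with a pseudocount of 0.1, 50 with no filter, 132 with a minimum of 5 FPKM, 336 with an equal FPKM sum, 25 with the Y-linked term, 1075 with array weights, and 119 to 258 with one library left out (122 without macrophage 5, 119 without macrophage 8). Of these calls 70.3% were higher in macrophages, against 59.5% with upper-quartile scaling, 55.3% with median-of-ratios scaling, 53.4% with quantile normalization and 49.7% without macrophage 6. The log2 difference of the activating to inhibitory ratio ran from -1.29 to -0.79 with one library left out, that of Fcer1g to its alpha chains from -0.55 to -0.29, that of Fcgrt to B2m from -0.53 to 0.13 and that of Fcgr3 to Fcgr2b from -1.52 to -1.09. Without both microglia 2 and 3, an alternative for the ratios chosen after seeing the data, they were -0.49, -0.19, -0.14 and -0.74 in the same order.

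No paired analysis was possible because the sources used here do not say which libraries, if any, came from the same animal. The number of libraries limits precision, and a missing call does not show equal levels. On data simulated with independent noise for each gene, the test recovered 22% of changes of 2 log2 units, more than any member showed. Each member had an estimated 324 fragments or more in every library, and the part of counting error in the spread was not tested.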
